A study of Mus musculus with 9 samples.

Results

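Transient genes are those whose RNA stood higher, or lower, in the middle of a time course than at either end. Here they are the genes whose 3 day 20 arrays all lay above, or all below, all 6 arrays of day 10 and day 30 in mouse embryonic stem cell-derived cardiomyocyte cultures. Of 18193 genes measured, 274 (1.51%) had all day 20 arrays above and 477 (2.62%) had all day 20 arrays below, 751 in all. The signals of these same arrays chose the members, so the order of their arrays is a description and not a test. At the edge of the rule, the gene just inside above was Zfp110, whose lowest day 20 array exceeded the highest other array by 0.0014 on the log2 scale, and the gene just outside was Trmt2b, which missed by 0.0023. Just inside below stood Pih1d2, by 0.00022, and just outside below stood Otx2, which missed by 4.9e-05.

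The study followed the maturation of these cardiomyocytes with 9 one-colour 3 prime expression arrays, 3 at each of day 10, day 20 and day 30 after the start of differentiation. Every group came from the same synp line, made from R1 embryonic stem cells on a 129X1 x 129S1 background. In every group the cells carried a puromycin resistance gene (PAC) under the Ncx1 promoter and received puromycin from day 7. All were differentiated with 5 factors (BMP4, Activin A, FGF10, bFGF and VEGF). As far as the labels say, the groups differ in age and, with it, in the time since puromycin was first given. Age and that time cannot be told apart. Ncx1 is the older name of Slc8a1, the sodium-calcium exchanger, so survival depends on the activity of that promoter and cells that lack it are removed only as far as selection is complete. The labels do not say that replicates were separate differentiations, so p-values cover only the spread among these arrays, and that spread may be technical. RNA was taken from whole cultures, so fewer cells of a type and less RNA per cell cannot be told apart.

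The list with the largest share of transient genes was cholesterol synthesis. Cells build cholesterol from acetyl units through mevalonate, isoprenoids, squalene and lanosterol. When sterols in the endoplasmic reticulum run low, the protein Scap escorts the membrane-bound transcription factor SREBP-2 to the Golgi, where it is cut and freed to enter the nucleus and raise most enzymes of the pathway together, often with the factor NF-Y bound nearby. When sterols are plentiful, Insig proteins hold Scap back. The pathway is busy in dividing cells, which need new membrane, and it supplies the isoprenoid groups attached to small GTPases.

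Of 20 genes in the cholesterol synthesis list, 16 were measured, and 9 of them (56.2%) had all 3 day 20 arrays below the other 6, against 2.62% of all genes. None of the 16 had all day 20 arrays above. The 9 were Hmgcs1, Idi1, Fdps, Sqle, Lss, Cyp51, Nsdhl, Hsd17b7 and Dhcr7, which are spread along the pathway. Idi1, Fdps, Nsdhl and Sqle are named by the rule given with the methods, and the other names here were taken after their values were seen. The day 20 mean was the lowest of the 3 day means in 15 of the 16 measured genes, against 30.0% of all genes. The median difference of the list between day 20 and the mean of the other days was -0.93 on the log2 scale, against -0.02 over all genes.

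Promoters of 4 of the 9 genes are shown because these genes lay low together and because SREBP and NF-Y are known to act just before the start of pathway genes. The sequences are from RefSeq (build GRCm38.p6), run 5′ to 3′ over the 250 bases before the annotated start, and have the NF-Y box CCAAT, read on either strand as CCAAT or ATTGG, in capitals. In Hmgcs1 the capitals also mark TCACCCCAC, the 1 match to the SREBP-like motif TCACNCCAC.
Idi1, chr13:8885356-8885605, plus strand: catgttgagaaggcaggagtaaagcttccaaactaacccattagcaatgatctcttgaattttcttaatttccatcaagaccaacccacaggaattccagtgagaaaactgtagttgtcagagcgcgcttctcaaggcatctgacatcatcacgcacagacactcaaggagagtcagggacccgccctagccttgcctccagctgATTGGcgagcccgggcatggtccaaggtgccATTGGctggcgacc
Hmgcs1, chr13:119690101-119690350, plus strand: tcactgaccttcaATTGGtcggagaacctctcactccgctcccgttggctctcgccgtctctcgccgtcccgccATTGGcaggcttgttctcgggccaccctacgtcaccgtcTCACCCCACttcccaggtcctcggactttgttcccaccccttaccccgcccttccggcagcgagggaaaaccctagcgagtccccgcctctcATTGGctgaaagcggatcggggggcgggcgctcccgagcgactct
Lss, chr10:76531355-76531604, plus strand: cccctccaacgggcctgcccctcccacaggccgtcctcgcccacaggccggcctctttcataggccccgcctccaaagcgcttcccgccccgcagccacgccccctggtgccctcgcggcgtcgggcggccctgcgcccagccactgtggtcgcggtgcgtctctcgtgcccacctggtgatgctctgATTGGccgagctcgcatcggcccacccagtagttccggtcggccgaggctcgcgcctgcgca
Nsdhl, chrX:72918271-72918520, plus strand: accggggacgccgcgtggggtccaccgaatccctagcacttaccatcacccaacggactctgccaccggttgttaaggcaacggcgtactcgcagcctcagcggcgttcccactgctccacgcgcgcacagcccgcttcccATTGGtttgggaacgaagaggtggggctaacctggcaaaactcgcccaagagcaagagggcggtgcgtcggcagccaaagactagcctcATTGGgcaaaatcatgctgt

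Both motifs were searched on both strands over 300 bases, from 250 before to 50 after the start, and a gene counted if any of its listed promoters held the motif. They were chosen after the sterol genes had been seen. Of the 9 genes, 7 were matched in the promoter table and all 7 held CCAAT, as did the 5 matched of the other 7 measured genes of the list. The share was 42.0% among the 14368 matched genes on the arrays, 47.5% among the 379 matched genes with day 20 all below, and 39.0% among the 210 matched genes with day 20 all above. The longer motif TCACNCCAC was in 1 of the 7, against 1.45% of matched genes on the arrays. Base composition was not matched in these shares.

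Idi1, the isomerase that makes the starter unit of isoprenoid chains, gave log2 signals of 11.00, 11.71 and 10.78 at day 10, 8.60, 8.84 and 8.79 at day 20, and 9.58, 9.68 and 9.90 at day 30. Its day 20 arrays lay 0.75 or more under every other array. Day 20 was 3.25-fold below the mean of the other days (log2 difference -1.70, SE 0.19, limma adjusted p = 0.0165). The fall from day 10 was -2.42 (limma adjusted p = 0.00086), while the difference from day 30, -0.98, did not pass (limma adjusted p = 0.15). Its other probe set also had all day 20 arrays below, with a difference of -1.60.

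Fdps, which makes farnesyl diphosphate, gave 11.02, 12.03 and 10.52 at day 10, 9.23, 9.03 and 9.11 at day 20, and 9.66, 9.68 and 10.32 at day 30. Sqle, the squalene epoxidase, gave 10.95, 11.29 and 10.01 at day 10, 9.10, 8.99 and 8.95 at day 20, and 9.36, 9.72 and 9.77 at day 30. Nsdhl, which acts in removing methyl groups from lanosterol products, gave 10.23, 11.29 and 9.85, then 8.67, 8.90 and 8.63, then 9.22, 9.37 and 9.62. In each of these genes the day 20 arrays were close together, with an SD of 0.08 to 0.15, while the day 10 arrays spread with an SD of 0.66 to 0.77. Their differences from the mean of the other days were -1.42, -1.17 and -1.20 and did not pass (limma adjusted p = 0.10, 0.10 and 0.12).

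The rule had chosen these 9 genes by their arrays, so what follows describes them. Their day 20 means differed from their day 10 means by -2.42 to -1.37. Their count in the test against day 10 is not given, as the rule chose them by the same arrays. The differences between day 20 and day 30 ran from -0.98 to -0.39, and none of the 9 passed (0.291% of all genes were lower at day 20 than at day 30 by this test). The day 30 mean was below the day 10 mean in all 9 genes, and in 7 of them past the threshold, a test that called 9.92% of all genes lower and 11.2% higher at day 30. The highest day 10 array was replicate 2 in each of the 9. The mean of the whole list was 9.63 to 10.67 at day 10, 8.56 to 8.71 at day 20 and 8.88 to 9.23 at day 30. The days did not overlap in this mean, and the drop after day 10 was larger than the return. As the list holds these 9 genes, the separation of day 20 in its mean follows in part from the rule.

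In the test of day 20 against day 10, 13 of the 16 measured genes passed as lower and none as higher. Over all genes 6.69% passed as lower and 7.3% as higher. The 13 include members that the rule chose by the same arrays, so this comparison describes the list and does not test it. The 7 measured genes that were not members also had lower day 20 means than the mean of the other days. Srebf2, which encodes SREBP-2, gave 9.60, 9.87 and 9.95 at day 10, 8.96, 9.23 and 8.73 at day 20, and 9.21, 9.34 and 9.16 at day 30, so that 1 day 20 array overlapped day 30. Stard4, a sterol carrier, and Mvd, the mevalonate diphosphate decarboxylase, had day 20 minus day 30 at 0.01 and -0.01. Insig1 had its day 20 replicate 2 at 10.01, within the day 10 and day 30 values. Outside the list, 3 more members act in the same pathway and were noticed after their values were seen. Genes of the pathway outside the list that were not members were not counted, and none of the 3 passed the contrast. Msmo1, a sterol methyl oxidase, had a difference of -1.16 (limma adjusted p = 0.054), Tm7sf2, a sterol reductase, -1.11 (limma adjusted p = 0.31), and Scap, the escort of SREBP, -0.83 (limma adjusted p = 0.10).

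**Figure D1:**
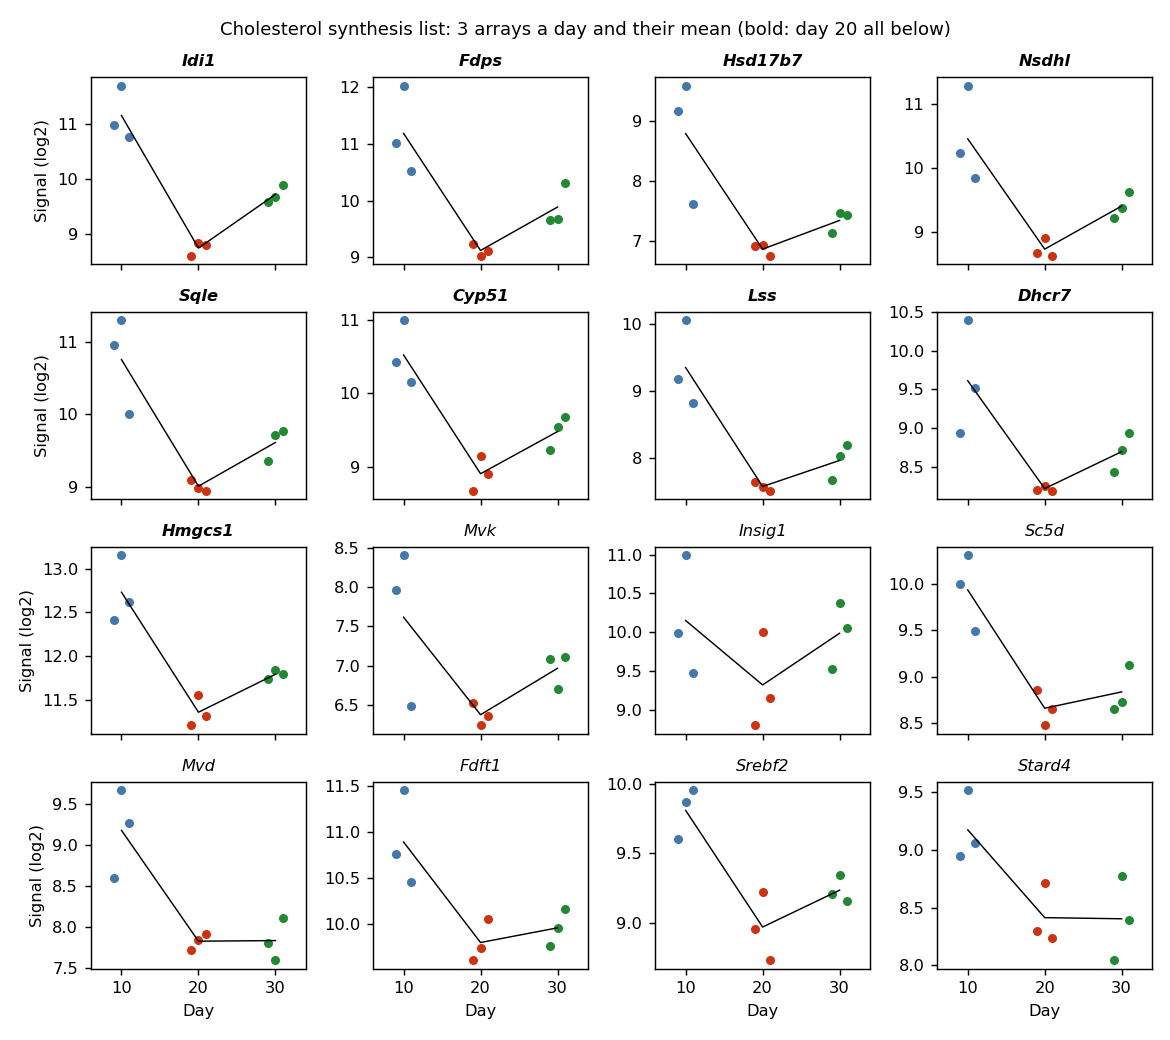
Log2 signal (y axis) against day of differentiation (x axis) for the 16 measured genes of the cholesterol synthesis list. Points are single arrays, lines join the day means, and bold titles mark the 9 genes whose day 20 arrays all lay below the other 6, as in Idi1 with 8.60 to 8.84 at day 20 and at least 9.58 elsewhere.

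Fatty acid synthesis, which shares regulation by the SREBP family, had 2 of 14 measured genes with all day 20 arrays below (14.3%, against 2.62% of all genes), and a median difference of -0.36 against -0.02 over all genes. Fasn, the fatty acid synthase, gave 10.42, 10.77 and 10.33 at day 10, 9.46, 9.02 and 9.43 at day 20, and 9.86, 9.74 and 10.10 at day 30. Acaca, the acetyl-CoA carboxylase that feeds it, gave 9.0, 9.37 and 8.90, then 8.19, 7.62 and 7.87, then 8.40, 8.70 and 8.56. By the rule, neither gene's day 20 arrays overlapped the others. Both differences from the mean of the other days just missed the threshold, at -0.90 and -0.93 (limma adjusted p = 0.051 and 0.052). Both fell from day 10 to day 20 by 1.20 (limma adjusted p = 0.0048 and 0.0056). The arrays that chose the 2 genes also gave these p-values, which therefore describe them only.

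Across the whole array, day 20 was tested against the mean of the 2 other day means. In this contrast 59 genes (0.324%) were higher and 28 (0.154%) lower at day 20. Of these, 16 members above (0.0879% of genes tested) and 14 members below (0.077%) were transient by array order. The other 57 genes that passed were not, as the contrast also calls a gene that rises early and then stays level. Among those 57, chosen for naming after their values were seen, Lox, which cross-links collagen and elastin, stood 3.13 above the mean of the other days but at -0.28 relative to day 30. The calcium-binding protein gene Casq2 stood 2.27 above that mean and at -0.81 relative to day 30.

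A stricter question is whether day 20 differed from day 10 and from day 30, each in the same direction. When the larger of the 2 limma p-values was adjusted over all genes by the Benjamini-Hochberg method, 0 genes passed in either direction (0%), and the lowest adjusted p was 0.82. Before adjustment, 152 genes were higher (0.835%) and 178 lower (0.978%) with the larger p under 0.05. With each difference held to its own adjusted p, a less strict rule added after seeing the data, 2 genes were higher, Gja4 and Adamts3, and 2 lower, 1810062O18Rik and Akna (0.011% each). Akna, which encodes an AT-hook protein, gave 4.80 to 4.96 at day 10, 4.34 to 4.40 at day 20 and 4.85 to 4.96 at day 30. 1810062O18Rik gave 5.35 to 5.49, 4.66 to 4.90 and 5.34 to 5.46.

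The nearer of the other days was day 30 in 228 of the 274 genes above (83.2%) and in 365 of the 477 below (76.5%), against 64.4% of all genes. The difference to the nearer day had a median of 0.33 above and -0.25 below, and it reached 1 or more on the log2 scale in 8 genes above and 10 below. The gap between the day 20 arrays and the nearest other array was under 0.1 in 168 and 340 of them, and at least 0.5 in 3 and 6. Over all genes, the test against day 30 called 0.044% higher at day 20. The rule chose the members by the same arrays, so their own count in that test is not given.

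Among the members above, the median signal relative to the day 20 mean was -0.72, -0.63 and -0.36 in the 3 day 10 arrays and -0.36, -0.29 and -0.33 in the 3 day 30 arrays. For members below the same medians were 0.57, 0.50 and 0.27, then 0.27, 0.25 and 0.29. Day 10 replicate 3 was the day 10 array nearest to day 20 in both sets.

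**Figure D2:**
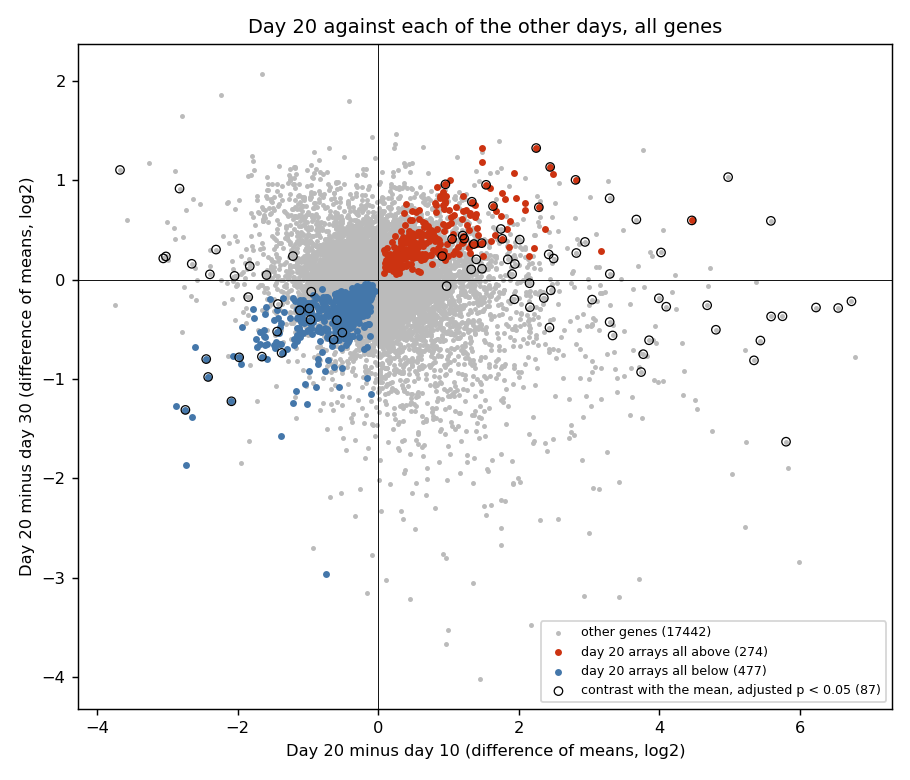
Day 20 minus day 10 (x axis) against day 20 minus day 30 (y axis), both as differences of mean log2 signals, for all 18193 genes. Red and blue points are the 274 and 477 genes with day 20 arrays all above or all below, circles are the 87 genes that passed the contrast with the mean, and many circles lie at the right near 0 on the y axis, where genes rose after day 10 and then stayed level.

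The calls rested on single arrays to an uneven degree. Without day 10 replicate 3 the contrast gave 839 genes higher and 886 lower, while without day 20 replicate 2 it gave 0 and 0, and without day 20 replicate 3 it gave 1 and 0. It gave 34 and 4 without day 20 replicate 1, and 20 and 7, 36 and 11, and 22 and 12 without day 30 replicates 1, 2 and 3. Of the 25 members named for passing the contrast, Gja4, Adamts3, Cdh13 and Cdkn1c passed in 7 of the 9 fits that each leave out 1 array, Idi1 in 6, and the others in 1 to 5. The mean signal of the 24 poly-A spike probe sets, control RNAs added before labelling, was 6.27, 6.25 and 6.69 at day 20, 6.23, 5.24 and 5.09 at day 10, and 6.03, 5.91 and 6.22 at day 30. All day 20 arrays thus lay above the other 6 on the spikes too, though narrowly, and the part of this in the results was not tested. When day 10 replicates 2 and 3, the lowest on the spikes, were both left out, an alternative added after seeing the data, 979 genes were higher and 1119 lower. That fit leaves day 10 with 1 array, which is assumed to vary like the arrays of the other days.

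**Figure D3:**
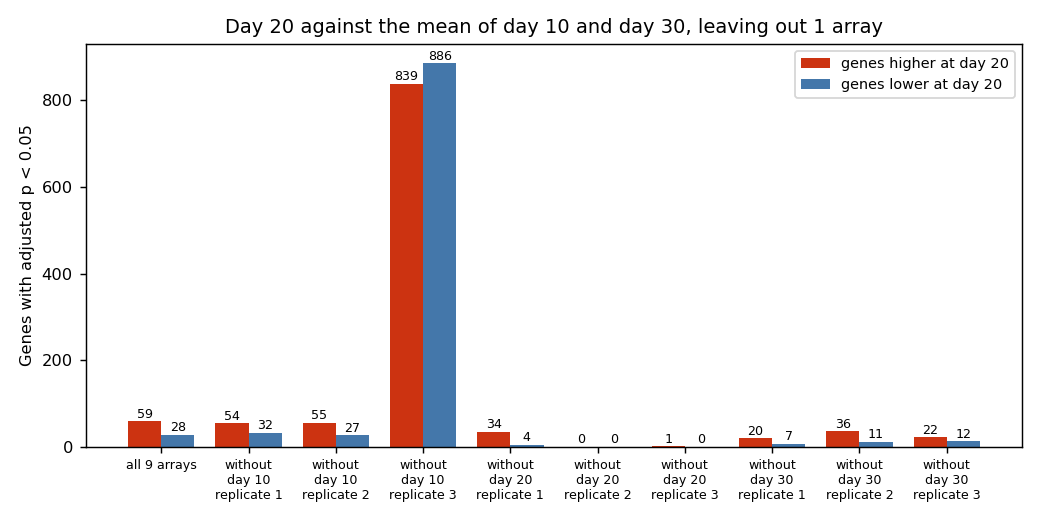
Genes past an adjusted p of 0.05 (y axis) in the contrast of day 20 with the mean of day 10 and day 30, for all 9 arrays and with each array left out in turn (x axis), red higher and blue lower at day 20. The count ranges from 0 without day 20 replicate 2 to 839 higher and 886 lower without day 10 replicate 3.

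Igfbp3, a carrier protein of insulin-like growth factors, gave 9.04, 7.62 and 7.96 at day 10, 5.36, 5.52 and 5.52 at day 20, and 6.43, 6.65 and 7.25 at day 30. Day 20 was 4.07-fold below the mean of the other days (-2.03, SE 0.31, limma adjusted p = 0.042), and its other probe set gave -1.86. The day 20 arrays were tight and lay 0.91 below the lowest other array. It was the 1 member among 24 measured genes of FGF, IGF and VEGF signalling (4.17% of the list, against 2.62% of all genes).

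Cdkn1c, the imprinted inhibitor of cyclin-dependent kinases known as p57, gave 12.07, 12.06 and 11.73 at day 10, 9.74, 9.66 and 9.12 at day 20, and 10.58, 10.00 and 10.34 at day 30. Mest, an imprinted gene expressed from the paternal copy, gave 12.56, 12.47 and 11.69, then 10.67, 10.67 and 10.43, then 11.35, 11.34 and 11.39. Both were lowest at day 20, -1.62 and -1.21 from the mean of the other days (limma adjusted p = 0.0165 and 0.042). Their differences from day 30 alone, -0.80 and -0.77, did not pass (limma adjusted p = 0.21 and 0.22). Peg10, a paternally expressed gene derived from a retrotransposon, had its day 20 arrays at 3.65 to 3.74 and its day 30 arrays at 3.78 to 3.97, and did not pass (limma adjusted p = 0.099). These 3 made up the members among 14 measured imprinted growth genes, or 21.4% against 2.62% of all genes, and the list's median difference was -0.26. In the test of day 20 against day 10, 6 of the 14 passed as lower and 1 as higher. Over all genes 6.69% passed as lower and 7.3% as higher. The 6 include the 3 members, which the rule chose by the same arrays, so this comparison describes the list and does not test it.

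Capn6, a calpain without protease activity that binds microtubules, gave 10.68, 10.12 and 10.28 at day 10, 8.29, 8.84 and 7.69 at day 20, and 9.75, 9.55 and 9.18 at day 30. Rhou, a small GTPase, gave 10.50, 9.74 and 10.26 at day 10, 8.42, 7.93 and 8.21 at day 20, and 8.87, 9.34 and 8.70 at day 30. They stood -1.66 and -1.38 below the mean of the other days (limma adjusted p = 0.044 and 0.041), and in both a second probe set had all day 20 arrays below. Capn6 had the widest day 20 spread of the 25 named members, with an SD of 0.58. Mcur1, a regulator of the mitochondrial calcium uniporter, gave 8.92 to 9.41 at day 10, 7.74 to 7.99 at day 20 and 8.40 to 8.83 at day 30 (-1.05, limma adjusted p = 0.027).

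The remaining named members below changed less. Hebp2, a heme-binding protein, differed by -0.98, Zfp932, a zinc finger protein, by -0.71, and Ddx46, an RNA helicase of the spliceosome, by -0.68. Parp11, which attaches ADP-ribose to proteins, differed by -0.63, and Ap3d1, a subunit of the AP-3 vesicle coat, by -0.50. Their limma adjusted p-values were 0.024, 0.047, 0.044, 0.035 and 0.041. In Ap3d1 the 2 differences were of like size, with -0.59 from day 10 and -0.41 from day 30, whereas in Zfp932 the fall from day 10 was -1.11 and the difference from day 30 was -0.31.

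Among the members above, Gja4 and Adamts3 were the 2 genes that passed the less strict rule, added after seeing the data, against each of the other days. Neither passed when the larger of the 2 limma p-values was adjusted (limma adjusted p = 0.82 in both). Gja4 encodes connexin 37, a gap junction protein known from arterial endothelium. It gave 4.83, 5.29 and 5.11 at day 10, 7.36, 7.48 and 7.13 at day 20, and 5.88, 5.73 and 6.39 at day 30, with the day 20 arrays 0.73 or more above the rest. Day 20 was 3.45-fold above the mean of the other days (1.79, SE 0.17), 2.25 above day 10 and 1.32 above day 30 (limma adjusted p = 0.0135, 0.00066 and 0.045). Adamts3, a protease that trims procollagen and activates VEGF-C, gave 5.60, 5.58 and 5.61, then 6.99, 7.18 and 7.23, then 6.16, 5.90 and 6.48. Its differences were 1.25 from the mean, 1.54 from day 10 and 0.95 from day 30 (limma adjusted p = 0.0135, 0.00088 and 0.045). Its other probe set, at a mean signal of 3.56, gave -0.08 and was not transient.

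Endothelial markers, a list without Gja4, were examined beside it. Of 17 measured endothelial markers, 0 had all day 20 arrays above and 1 had all below (5.88%, against 2.62% of all genes). The 1 below was Tek, the receptor of angiopoietins. Tek gave 4.56, 6.61 and 5.46 at day 10, 4.18, 4.32 and 3.99 at day 20, and 4.65, 6.81 and 5.77 at day 30 (-1.48, limma adjusted p = 0.25). The mean of the endothelial list was 5.06 to 6.21 at day 10, 5.24 to 5.31 at day 20 and 5.33 to 5.48 at day 30.

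Cdh13, or T-cadherin, a membrane-anchored cadherin that binds adiponectin, had the largest contrast of the named genes. It gave 6.22, 6.93 and 6.80 at day 10, 10.67, 11.44 and 11.24 at day 20, and 10.41, 10.64 and 10.50 at day 30. The rise from day 10 was 4.47 (limma adjusted p = 0.00010), but the day 30 arrays lay only just under the day 20 arrays, by 0.60 in the mean (limma adjusted p = 0.41). Its contrast of 2.53 thus came mostly from the early rise. Lonrf3, a RING finger protein, gave 5.34, 4.63 and 4.35, then 7.24, 7.79 and 7.72, then 6.38, 6.89 and 6.46, and stood 1.91 above the mean of the other days (limma adjusted p = 0.022).

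Asrgl1, an asparaginase, gave 7.71, 7.72 and 8.22 at day 10, 9.78, 10.28 and 10.45 at day 20, and 9.30, 9.29 and 9.75 at day 30 (1.51, limma adjusted p = 0.024). All 3 of its other probe sets gave positive differences, of 1.15 to 1.40, but not every one had all day 20 arrays above. Wtip, a LIM-domain protein of cell junctions, was 7.89 to 8.58 at day 10, 9.81 to 9.92 at day 20 and 8.82 to 9.35 at day 30 (1.19, limma adjusted p = 0.035). Lrrn2, a leucine-rich repeat membrane protein, stood 1.09 above the mean of the other days, and Gnai1, an inhibitory G protein subunit, 0.82 above it, as did Abhd8, an alpha/beta hydrolase (limma adjusted p = 0.025, 0.035 and 0.019). Pfn2, the actin-binding protein profilin 2, showed the smallest of these, at 0.57 (limma adjusted p = 0.048), with day 20 arrays of 11.16 to 11.19 and day 30 arrays of 10.88 to 11.04.

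Among the named members, Ero1b, Dnajb9 and Hspa5 act in protein folding in the endoplasmic reticulum, and these 3 lay above. The other members were not searched for this function. Ero1b, an oxidase that recharges protein disulfide isomerase, gave 5.89, 6.0 and 6.39 at day 10, 7.24, 7.68 and 7.37 at day 20, and 6.68, 6.84 and 6.42 at day 30 (1.06, limma adjusted p = 0.036). Dnajb9, a co-chaperone of the chaperone BiP, gave 9.47, 9.38 and 9.72, then 10.41, 10.60 and 10.73, then 10.05, 10.29 and 10.17 (0.73, limma adjusted p = 0.042). Hspa5, which encodes BiP, had all day 20 arrays above but by little, 12.40 to 12.62 against 12.17 to 12.33 elsewhere (0.23, limma adjusted p = 0.23). Its other probe sets gave 0.33 and -0.17. Dnajb9 and Hspa5 were the only members among 18 measured chaperones of that compartment (11.1%, against 1.51% of all genes above). The median difference of that list was -0.01 against -0.02 over all genes. Of the 18, 5 had their lowest day mean at day 20 and 4 their highest.

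Gadd45b, induced by stress and able to activate p38 kinase signalling, gave 8.30, 8.01 and 8.41 at day 10, 9.68, 9.58 and 9.55 at day 20, and 8.99, 9.30 and 9.45 at day 30 (0.86, limma adjusted p = 0.038). In the list of CDK inhibitors and p53 targets it was the 1 member above among 19 (5.26%, against 1.51% of all genes). Cdkn1c and Trp53inp1 were the members below (10.5%, against 2.62% of all genes). Nrarp, a target and inhibitor of Notch signalling, gave 5.03, 6.28 and 5.75, then 7.30, 8.15 and 7.40, then 6.40, 6.89 and 6.35 (1.5, limma adjusted p = 0.084). It was the 1 member among 15 Notch genes (6.67%, against 1.51% of all genes above). Of 19 Wnt genes, 2 were members above (10.5%, against 1.51% of all genes), while the list median was -0.03. They were the ligand Wnt5a at 0.63 and the inhibitor Nkd1 at 0.86, and neither passed (limma adjusted p = 0.18 and 0.22). In both genes another probe set was also all above, and further probe sets were not.

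**Figure D4:**
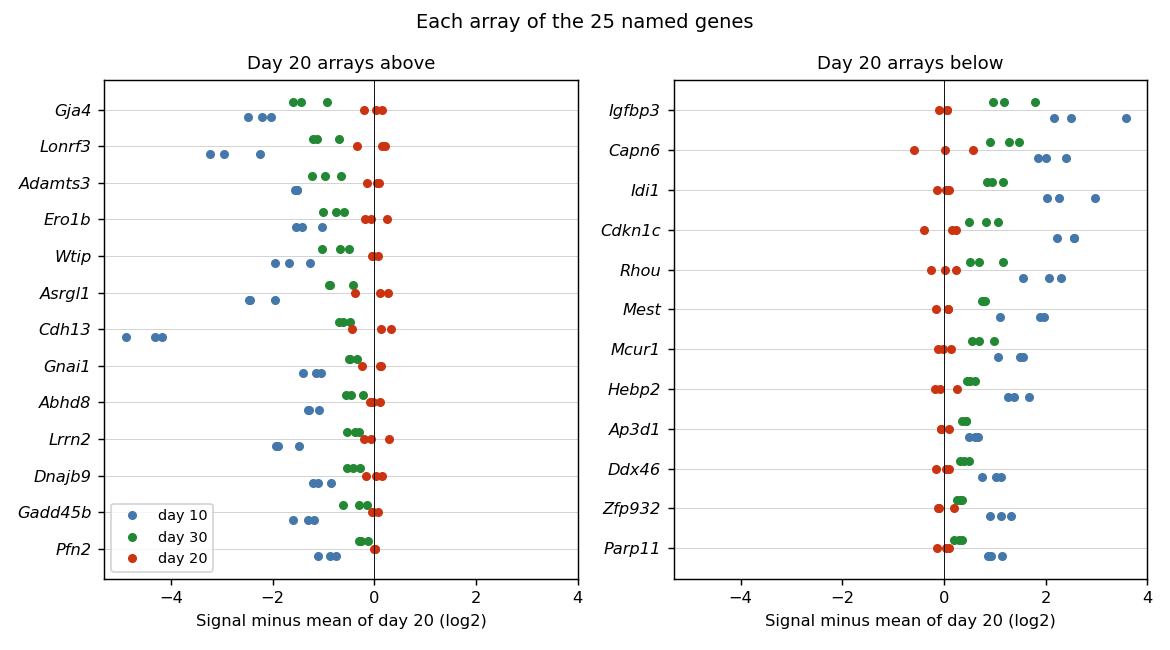
Each of the 9 arrays of the 25 named members that passed the contrast, as log2 signal minus the gene's day 20 mean (x axis), with genes on the y axis in order of the difference to the nearer day. Day 30 (green) lies between day 20 (red) and day 10 (blue) in most genes, and in Gja4 the 3 days are fully apart, with 7.13 to 7.48 at day 20 and 5.73 to 6.39 at day 30.

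Of 44 gene lists examined, 19 held at least 1 member and 25 held none. Outside cholesterol synthesis, 713 listed genes were measured, of which 8 (1.12%) were members above and 21 (2.95%) below, near the shares over all genes. Lists with no member included calcium handling, cardiac ion channels, cardiac transcription factors, fetal heart genes, fatty acid oxidation, oxidative phosphorylation, DNA replication and mitosis. Hypoxia response genes outside glycolysis had the highest day mean at day 20 in 14 of 16 genes, against 23.3% of all genes, with a median difference of 0.86, yet none had all day 20 arrays above. Glycolysis genes had it in 13 of 18, with a median of 0.47 and again no member. None of the hypoxia and glycolysis genes passed the contrast. In the test of day 20 against day 10, 7 of the 16 hypoxia genes passed as higher, against 7.3% of all genes.

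In the ATF4 amino acid stress list 3 of 22 genes were members below (13.6%, against 2.62% of all genes). They were Cth, which makes cysteine, Psat1, of serine synthesis, and Slc7a11, the cystine transporter. Cth gave 5.84, 5.98 and 4.87 at day 10, 4.15, 4.71 and 4.17 at day 20, and 4.93, 6.49 and 5.32 at day 30 (-1.23, limma adjusted p = 0.20), and Slc7a11 stayed between 4.0 and 4.36 on all arrays. The list median was -0.23, and it was 0.11 without day 20 replicate 1. In the antioxidant list 2 of 18 genes were members below (11.1%, against 2.62% of all genes). They were Gclm, the modifier subunit of glutathione synthesis, at -0.98, and Txnrd1, a thioredoxin reductase, at -0.91 (limma adjusted p = 0.22 and 0.24). Bcat1, which starts the breakdown of branched-chain amino acids and was noticed after its values were seen, had the largest difference to the nearer day of all members. It gave 8.20, 8.37 and 6.48 at day 10, 4.85, 5.23 and 4.80 at day 20, and 6.38, 7.25 and 6.85 at day 30 (-2.30, limma adjusted p = 0.061).

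Sgk1, a kinase induced by glucocorticoids, and Sesn3, a sestrin induced by FOXO factors, were the 2 members among 18 glucocorticoid and FOXO targets, both below (-1.13 and -0.51, limma adjusted p = 0.20 and 0.26). Srsf2 and Srsf3, splicing factors, were the 2 members among 18 splicing and nuclear noncoding RNA genes, both below (-0.74 and -0.73, limma adjusted p = 0.18 and 0.16). Each of these 2 pairs made up 11.1% of its list, against 2.62% of all genes. The clock repressor Cry2 was the 1 member among 17 clock genes (5.88%, against 1.51% of all genes above), higher by 0.44 (limma adjusted p = 0.22). Of 14 ribosomal protein genes, Rps27 lay above (0.52) and Rps6 below (-0.70), each 7.14% of the list. Many processed copies of such genes can share their probes. Rspo1, a Wnt agonist listed with epicardial markers, and Rbp4, a retinol carrier listed with endoderm markers, were the 1 member of their lists, both below. They made up 7.69% and 5.88% of these lists, and neither passed (limma adjusted p = 0.27 and 0.17). Rspo1 stayed between 3.75 and 4.42 on all arrays. Rbp4 had day means of 5.02, 4.29 and 7.25, and its difference from day 10 was -0.73 (limma adjusted p = 0.46).

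**Figure D5:**
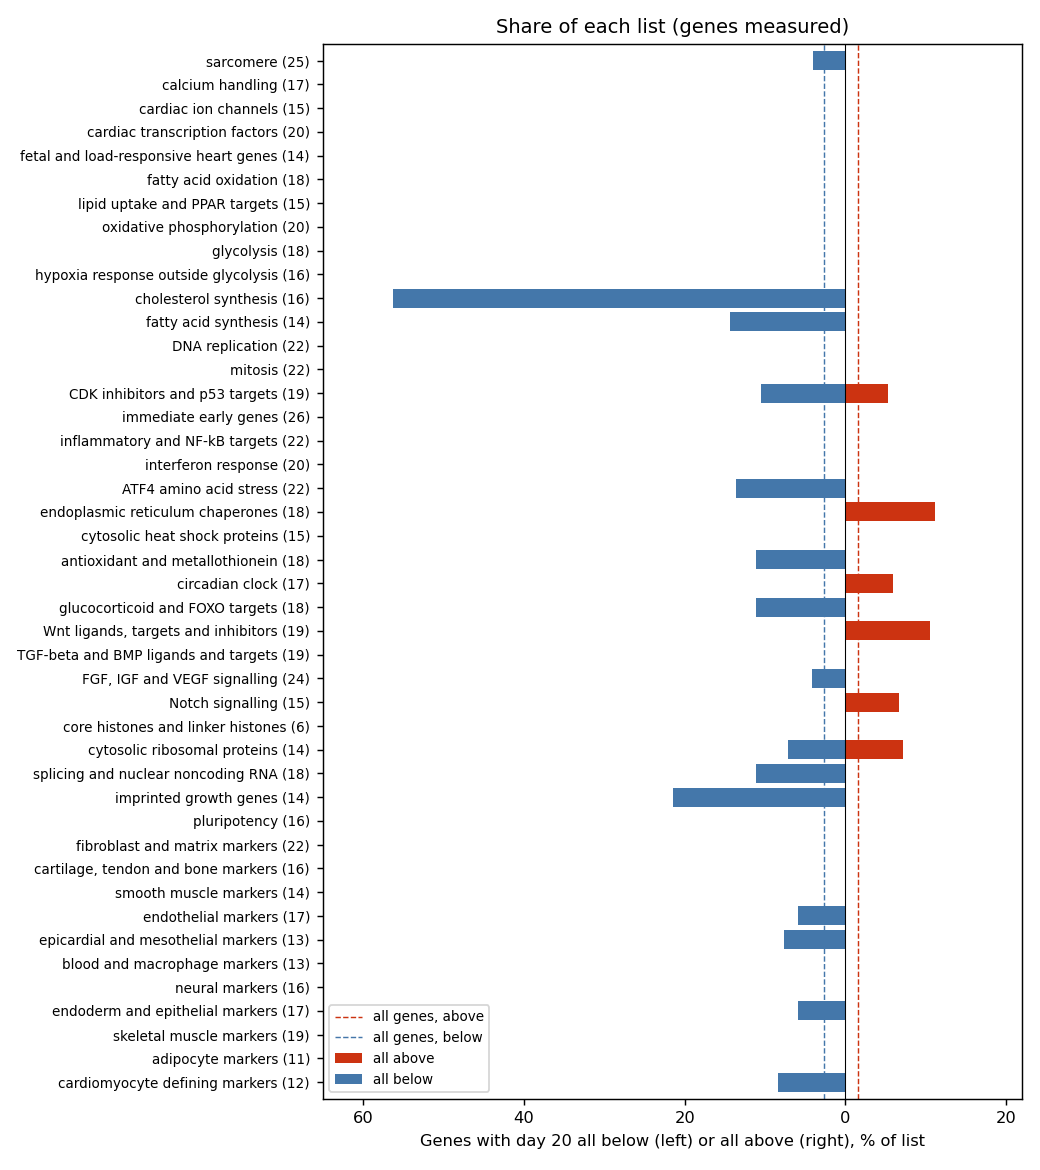
Share of the measured genes of each list with all 3 day 20 arrays below (blue, left) or above (red, right), in percent of the list (x axis), with the number of genes measured after each name (y axis). Dashed lines mark the shares over all genes, 2.62% below and 1.51% above, and cholesterol synthesis reaches 56.2% below.

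Cardiomyocyte RNA was high on every array. All 12 defining markers were measured, and their mean signal was 11.98 to 12.70 at day 10, 12.51 to 12.82 at day 20 and 12.69 to 12.79 at day 30, with a median difference of 0.01 in the contrast. Tnnt2, cardiac troponin T, was the 1 member among them, with 13.42, 13.45 and 13.40 at day 10, 13.01, 13.09 and 13.32 at day 20, and 13.59, 13.49 and 13.54 at day 30 (-0.34, limma adjusted p = 0.13). Its other probe sets gave -0.20 and -0.81, and neither had all day 20 arrays below. Tnnt2 made up 8.33% of these 12 markers and, as the 1 member among 25 sarcomere genes, 4% of those, against 2.62% of all genes. The myosin heavy chains Myh6 and Myh7 and the natriuretic peptide Nppa differed by 0.35, -0.01 and 0.02 and did not pass (limma adjusted p = 0.37, 0.99 and 1.0). Slc8a1, whose promoter drove the selection, gave 9.20, 9.80 and 9.89, then 8.33, 7.94 and 8.24, then 9.31, 7.65 and 8.54. Its day 20 arrays lay within the day 30 range (-0.90, limma adjusted p = 0.26).

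Markers of other cell types changed along the course, with few transient genes among them. The 22 fibroblast and matrix markers had a mean of 7.55 to 7.91 at day 10, 10.04 to 10.89 at day 20 and 11.15 to 11.45 at day 30. None was a member, although 4 passed the contrast as higher, against 0.324% of all genes. In the test of day 20 against day 10, 14 passed as higher, against 7.3% of all genes. Smooth muscle markers had a mean of 8.44 to 8.70, 9.02 to 9.75 and 8.58 to 9.50, with no member among 14. Mitosis genes had a mean of 9.53, 9.94 and 7.66 at day 10, 8.65, 6.97 and 7.91 at day 20, and 6.41, 6.79 and 7.63 at day 30, so they overlapped between days, and day 10 replicate 3 stood well below the other day 10 arrays. Mki67, a marker of dividing cells, gave 10.30, 11.12 and 8.83, then 10.13, 8.19 and 9.09, then 7.52, 8.0 and 8.80 (0.05, limma adjusted p = 0.98). The part of these cell type and cell cycle differences in the transient pattern was not tested.

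Probe sets that the rule had not used measured the same RNA again, on the same arrays, and so are no independent samples. The 144 members above with more than 1 probe set had 277 others, of which 53 (19.1%) also had all day 20 arrays above and 218 (78.7%) had a positive difference. The 233 such members below had 429 others, of which 79 (18.4%) had all day 20 arrays below and 366 (85.3%) a negative difference. Over all genes 1.46% of other probe sets were all above, 2.47% all below and 45.1% had a positive difference. Cdh13, Pfn2, Gnai1 and Hmgcs1 each had at least 2 other probe sets that were transient in the same direction, while none of the other probe sets of Lss and Hsd17b7 was.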

How the data were processed

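The authors deposited a log2 signal for each probe set on 9 arrays, in 3 groups of 3. How it was normalized, and to which base, is not given in the sources used here. Values of 2.77 to 14.52 were read as log2, and array medians were 5.48 to 5.56. The platform annotation named 1 gene for 34945 of 45101 probe sets, several for 932 and none for 9160, besides 64 controls. Only those with 1 symbol were named, and a gene was read by its brightest probe set. Signal over background was not judged here, and the number of arrays limits the precision.

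A mean per day was fitted to all 9 arrays and 18193 genes with limma 3.58.1 in R 4.3.3 (6 residual degrees of freedom), after a check on simulated data. Tests were two-sided, adjusted over all genes by the Benjamini-Hochberg method, with a threshold of 0.05. The members, lists and tests were chosen with earlier results of these data known. Named genes are, of members past the contrast with the mean whose higher day mean exceeds 6.63, up to 15 in each direction by difference to the nearer day, up to 4 members per list, and Slc8a1, Mki67, Myh6, Myh7 and Nppa. Alternatives were other normalizations, a filter on dim genes, the mean of probe sets, array weights, a trended robust fit, a replicate block, a minimum gap and leaving out arrays. Promoters are from RefSeq (GRCm38.p6).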

Additional observations from a re-analysis of the deposited data

How the results depend on the processing

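No result changed direction past the threshold under the alternatives run. Leaving out 1 array gave 0 to 839 genes higher and 0 to 886 lower at day 20 than the mean of the other days. It gave 328 to 940 members above and 527 to 884 below, since fewer arrays ease the rule, with 0 to 341 and 0 to 404 of them past the contrast. Genes beyond both days stayed at 0 to 0. Day 30 against day 10 gave 1482 to 2460 genes higher and 1062 to 2624 lower, and cholesterol synthesis 9 to 11 members below. Of the 25 named genes, 25 passed without day 10 replicate 3 and 0 without day 20 replicate 2 or 3.

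Array weights, which rested most on day 10 replicate 2, gave 975 genes higher and 937 lower, with 202 and 295 members past the contrast, and 3183 genes lower at day 30 than day 10. Leaving out dim genes gave 259 members below, with 23 past the contrast, and the mean of probe sets gave 25 members above past it. A gap of at least 0.5 left 3 members above, 6 below and 1 of cholesterol synthesis. Without day 10 replicates 2 and 3, chosen after seeing the data and with the spread taken from the other days, there were 979 genes higher and 1119 lower, 878 members above and 1099 below, 368 and 479 of them past the contrast, and 3 genes beyond both days. With each difference held to its own adjusted p, also added later, 4 genes were beyond both. The causes were not tested.

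The main fit did not pair samples by replicate number. With day means removed, same-number arrays of different days correlated at -0.15 to 0.43, and different-number arrays at -0.46 to 0.24. Of 9 same-number pairs, 3 correlated above 0.1, and these 3 exceeded every different-number pair. An effect shared by arrays of the same number was not tested. With the replicate block, 16 genes were lower and 5 members below passed the contrast, and 10 of the 25 named genes passed.

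All 16 cholesterol synthesis genes kept a negative difference in every setting run, with a median of -1.22 to -0.77 and 8 to 11 members below before a gap was asked for. Quantile normalization kept 680 of the 751 members and median centring 619. Only 3 arrays a day and the wider spread at day 10 limit what can be called.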
